A study of Arabidopsis thaliana with 16 samples.

Results

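After heat stress (HS), the native-promoter and the 35S-promoter plants gave peak lists of very different size, 1259 and 13262 deposited peaks, and few summits were shared. The sets compared here, called the main sets, held 1181 NP:HSFA1b HS peaks and 1342 35S:HSFA1b HS peaks, 2523 of the 14521 peaks in both deposited HS lists and of the 35133 in the whole series. A main-set peak lay on chromosomes 1 to 5 outside the pericentromere and had a fold enrichment (FE) of at least 2 at its summit, the base where most fragments overlapped. A pair of summits at most 100 bp apart counted as matched. By this rule 133 summits were matched, which was 11.3% of the NP:HSFA1b peaks (95% interval 9.51 to 13.2%) and 9.91% of the 35S:HSFA1b peaks (8.36 to 11.6%). The intervals are exact binomial (Clopper-Pearson) intervals and cover counting error only.

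Binding of the transcription factor HSFA1b to leaf chromatin was mapped by chromatin immunoprecipitation and sequencing (ChIP-seq). NP:HSFA1b plants were Col-0 Arabidopsis carrying genomic HSFA1b fused to eYFP behind the gene's own promoter (line NP:HSFA1b_6, chosen for its low level of tagged protein), precipitated with an antibody to GFP. 35S:HSFA1b plants were Col-0 with HSFA1b fused to RFP behind the strong viral 35S promoter (line B), precipitated with an antibody to RFP. Both groups and their control plants (NP_control_HS and 35S_control_HS) were 5 weeks old and spent 30 min at 37 °C and 86% relative humidity, and each group held 2 samples. Both transgenic groups had the endogenous HSFA1b gene as well, and each construct was represented by 1 line. The constructs thus differed in promoter, tag and antibody, and the effects of these on the lists cannot be told apart. The 2 libraries of a group were pooled before peaks were called, so every peak has 1 value per construct, its spread between samples is unknown, and the samples could not be tested against each other.

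Depth differed between the constructs. The caller kept 2438702 fragments for NP:HSFA1b HS and 13481546 for 35S:HSFA1b HS, with 1139036 and 4863174 control fragments. FE had a median of 4.56 in the NP:HSFA1b main set (quartiles 3.67 and 5.96, highest 28.6) and of 2.19 in the 35S:HSFA1b main set (2.07 and 2.36, highest 4.23). The limit of FE 2 therefore cut the lists at different places: 3.18% of the deposited NP:HSFA1b peaks and 89.4% of the deposited 35S:HSFA1b peaks (11854 of 13262) lay below it. NP:HSFA1b peaks were narrow, with a median width of 299 bp. 35S:HSFA1b peaks had a median width of 3139 bp, and 981 of them (73.1%) were wider than 1000 bp against 37 (3.13%) in NP:HSFA1b. At the FE limit itself, the lowest NP:HSFA1b value inside was 2.002 and the highest outside 1.939, and in 35S:HSFA1b they were 2.01 and 2. The widest matched distance was 100 bp and the nearest unmatched one 103 bp.

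Heat shock factors (HSFs) are the transcription factors that switch on heat shock protein genes in all eukaryotes. On heating, class A1 HSFs of plants form trimers and bind heat shock elements (HSEs), inverted repeats of the letters GAA and TTC that lie mostly in promoters close to the transcription start site (TSS). Among their best-known targets are the genes of cytosolic and organellar chaperones, which refold or hold unfolding proteins, and of the factor HSFA2, which extends the response. A separate response, to unfolded proteins in the endoplasmic reticulum (ER), acts through bZIP factors at promoter elements with an ACGTG core.

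The summit sequences below are picked examples that held a motif, which most summits of their groups did not hold. They are plus-strand TAIR10 sequence, read from the RefSeq copy of the genome, and cover at most 50 bp on each side of the NP:HSFA1b summit for matched and NP:HSFA1b summits, or of the 35S:HSFA1b summit for the last pair. Where a window ran into an untranslated region (UTR), it was cut back to the bases outside it or to 29 bp around the motif. The first group is 4 matched summits with an HSE of 3 repeats, that is GAA, TTC and GAA (or the reverse complement) with any 2 bases between neighbouring repeats. This HSE lay within 50 bp of 10 of the 133 matched NP:HSFA1b summits. Capitals mark it and, for HSFA2, also the G-box (CACGTG, a binding site of bZIP and bHLH factors).
HSFA2 (chr2:11135498-11135598): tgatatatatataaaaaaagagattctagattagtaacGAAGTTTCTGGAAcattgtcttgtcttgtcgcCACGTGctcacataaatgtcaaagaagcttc
Hop3 (chr4:7341319-7341347): caagagagTTCTCGAAATTTCgaattttt
BOB1 (chr5:21661424-21661452): cttactacTTCTCGAACCTTCtcgatttg
cpHsc70-2 (chr5:20303341-20303369): caaccattTTCTAGAACCTTCcacttctt

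The centre of the HSE lay 6 bp from the NP:HSFA1b summit and 1 bp from the 35S:HSFA1b summit at HSFA2. These distances were 12 and 11 bp at Hop3, 4 and 39 bp at BOB1, and 3 and 37 bp at cpHsc70-2. Both constructs thus gave their summit within 39 bp of the same element at these 4 promoters. An HSE of 3 repeats lay within 50 bp of at least 1 summit in 11 of the matched pairs, at a median of 14 bp from the NP:HSFA1b summit and 11 bp from the 35S:HSFA1b summit.

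The second group is the NP:HSFA1b summits with the highest FE that had no deposited 35S:HSFA1b summit within 100 bp, at genes for ER chaperones. Capitals mark the G-box and the core of the unfolded protein response element (UPRE core, TGACGTG on either strand). The UPRE core lay within 50 bp of 37 of the 1048 unmatched NP:HSFA1b summits.
SHD (chr4:12556059-12556141): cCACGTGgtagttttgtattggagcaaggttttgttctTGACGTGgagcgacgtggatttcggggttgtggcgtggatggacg
CNX1 (chr5:24829865-24829893): tcataacaggcCACGTCAttcaaaagcga

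The third group is 35S:HSFA1b summits among those with the highest FE and no deposited NP:HSFA1b summit within 100 bp. Capitals mark a GAGA repeat (GAGAGAGA on either strand) and, for AT5G37670, also a G-box. The GAGA repeat lay within 50 bp of 110 of the 1209 unmatched 35S:HSFA1b summits. AT5G37670 encodes the small heat shock protein HSP15.7, and the first summit lies in the intergenic region upstream of BRG1.
BRG1 (chr5:18215719-18215819): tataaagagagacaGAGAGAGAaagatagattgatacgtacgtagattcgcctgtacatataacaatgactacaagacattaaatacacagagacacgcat
AT5G37670 (chr5:14969179-14969279): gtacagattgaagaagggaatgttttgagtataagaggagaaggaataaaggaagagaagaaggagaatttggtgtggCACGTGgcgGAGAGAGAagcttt

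The matched summits lay close together. Of the 1181 NP:HSFA1b summits, 94 had a 35S:HSFA1b main-set summit within 50 bp, 39 at 51 to 100 bp and 23 at 101 to 150 bp, and each further 50 bp bin up to 1000 bp held 0 to 9. Within the matched pairs the distance had a median of 33 bp (quartiles 15 and 54), and 56 pairs were within 25 bp. At 131 of the 133 pairs (98.5%) both summits had the same nearest TSS. One exception is the promoter shared by HSFA2 and FTSH4 (AT2G26140), which run in opposite directions. There the summits were 7 bp apart, at positions 11135548 and 11135541 of chromosome 2, and the 35S:HSFA1b summit was the closer to FTSH4. The other is AT5G47210.

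The share matched rose with NP:HSFA1b strength. Among the quintile of NP:HSFA1b peaks with the lowest FE (up to 3.49), 9 of 237 had a match (3.80%, 1.75 to 7.09%). The next 3 quintiles gave 9.75%, 10.2% and 11.9%. In the strongest quintile (FE from 6.54), 49 of 236 were matched (20.8%, 15.8 to 26.5%), and the intervals of the weakest and the strongest quintile did not overlap. Allowing any deposited 35S:HSFA1b summit, whatever its FE, raised the share to 12.2% in the weakest and 33.5% in the strongest quintile. The 35S:HSFA1b peaks showed the same order, with 6.32% matched in the weakest quintile (FE up to 2.06) and 18.7% (14.2 to 23.8%) in the strongest (FE from 2.42).

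**Figure D1:**
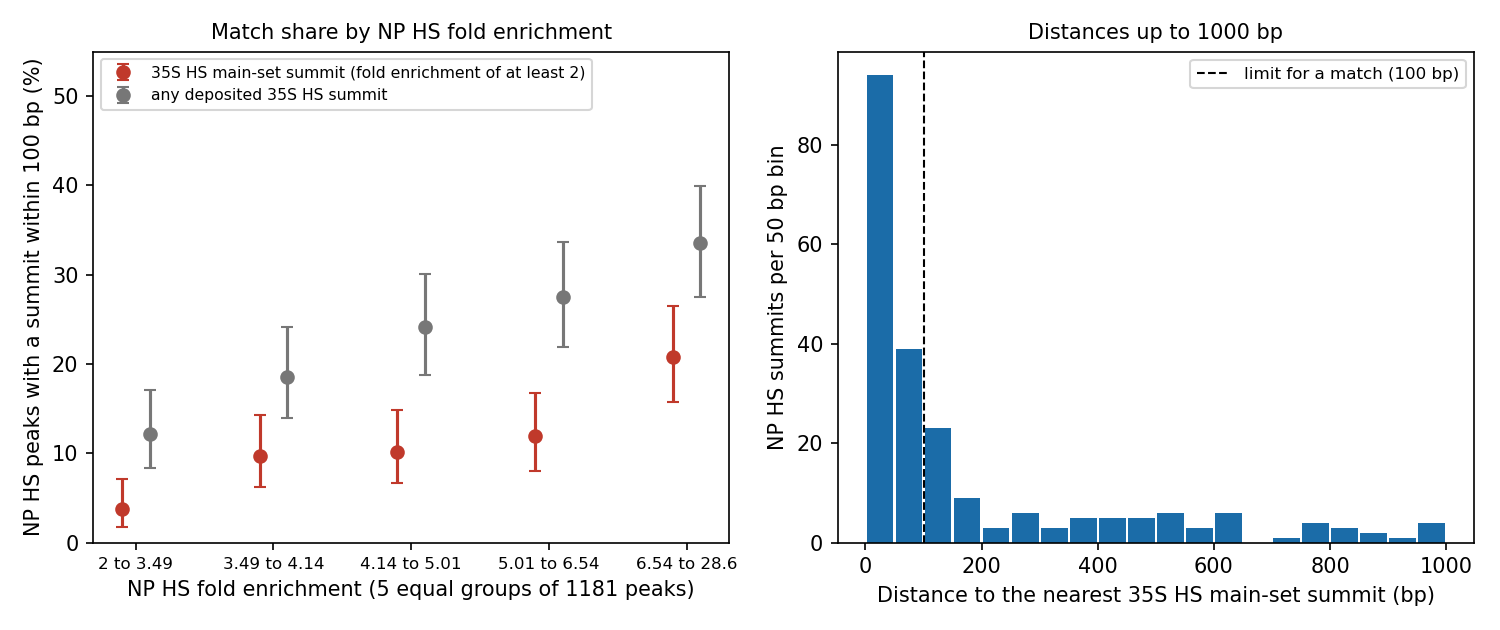
The left panel plots the percent of NP HS peaks with a 35S HS summit within 100 bp for quintiles of NP HS fold enrichment, with 95% binomial intervals as bars, for main-set summits (red) and all deposited summits (grey); the right panel counts NP HS summits by distance (bp) to the nearest 35S HS main-set summit, in 50 bp bins. The main-set share goes from 3.80% in the weakest to 20.8% in the strongest quintile, and 94 summits fall in the first distance bin.

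The NP:HSFA1b peaks without a match were of 3 kinds. A weaker deposited 35S:HSFA1b summit lay within 100 bp of 141 (11.9%). A further 380 (32.2%) had their summit inside a deposited 35S:HSFA1b peak whose own summit was farther away, and 527 (44.6%) lay outside every deposited 35S:HSFA1b peak. The median FE in NP:HSFA1b fell along this order, from 5.45 at matched peaks to 4.80, 4.36 and 4.36. The kinds also differed in position: 65.4% of matched peaks, 57.4% of those with a weaker 35S:HSFA1b summit, 45.0% of those inside a 35S:HSFA1b peak and 44.6% of those outside all of them lay within 250 bp of a TSS. Counting any overlap of the intervals by 1 bp in place of the summits, 344 NP:HSFA1b peaks (29.1%) met a 35S:HSFA1b main-set peak and 690 (58.4%) met a deposited one, and 280 35S:HSFA1b peaks (20.9%) met an NP:HSFA1b peak. Deposited 35S:HSFA1b peaks covered from 0.923% of chromosome 4 to 59.5% of chromosome 1, and the overlap shares were not adjusted for this.

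Enrichment was higher in NP:HSFA1b at all 133 pairs. The FE of NP:HSFA1b over that of 35S:HSFA1b had a median ratio of 2.23 (quartiles 1.78 and 3.27, range 1.03 to 8.92). FE is a ratio to each list's own background, and the depth and scaling of the lists differed, so this ratio does not compare amounts of bound protein. The FE values of a pair were weakly related, with Pearson's r 0.27 on the log2 scale and Spearman's rho 0.24 across the 133 regions, which share their libraries and are not replicates. The strongest pair by NP:HSFA1b was AT5G61970, which encodes a protein related to the signal recognition particle, with FE 27.0 in NP:HSFA1b and 3.03 in 35S:HSFA1b and summits 5 bp apart, 1549 bp upstream of the TSS. ACT7, a vegetative actin, followed with 17.0 and 3.38, and HSFA2 with 15.5 and 2.83. CPN20, a chloroplast co-chaperonin, had 14.2 and 3.42, with the NP:HSFA1b summit 48 bp upstream of the TSS. The top 10 also held AT1G68300 (13.7 and 2.44), the co-chaperone gene Hop3 (13.7 and 2.01), the cytochrome P450 gene CYP78A7 (13.3 and 2.04), WRKY22 (12.6 and 3.84), the cellulose synthase gene CESA1 (12.5 and 2.56) and AT5G47420 (12.3 and 2.06). Only 15 of the pairs reached FE 3 in 35S:HSFA1b, and WRKY22, whose product is a regulator of defence genes, had the closest summits of the top 10, 1 bp apart.

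**Figure D2:**
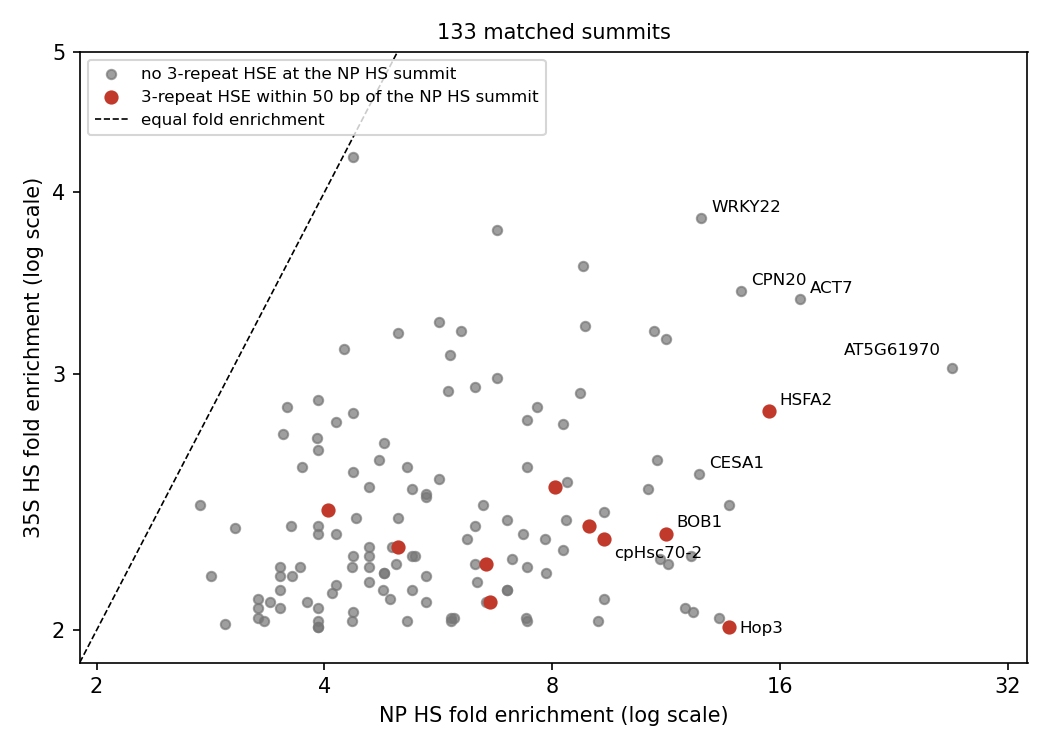
Each point is 1 of the 133 matched summits, with NP HS fold enrichment on the x axis and 35S HS fold enrichment on the y axis (both log scales); red points have an HSE of 3 repeats within 50 bp of the NP HS summit and the dashed line marks equal values. All points lie below the line, and the 10 red points include HSFA2, Hop3, BOB1 and cpHsc70-2.

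The strongest summits of each construct without any deposited counterpart within 100 bp included a small heat shock protein gene in both lists, AT1G54050 in NP:HSFA1b and AT5G37670 in 35S:HSFA1b. SHD, the ER-resident HSP90, had the highest FE of the NP:HSFA1b list (28.6), 33 bp upstream of its TSS, and CNX1, the ER lectin chaperone calnexin, had 22.7. Next were THH1 (19.2), the long non-coding RNA AT1G07833 (19.2), ERDJ3B, an ER DnaJ protein (16.2), and AT1G54050, a small heat shock protein (15.7). LHB1B1, an antenna protein of photosystem II, had 15.3, AT1G63420 14.0, AT1G20770 13.7 and the long non-coding RNA AT4G03585 13.4. The summits at SHD, CNX1, THH1, ERDJ3B, LHB1B1 and AT4G03585 lay outside every deposited 35S:HSFA1b peak. This held for 44.6% of all NP:HSFA1b main-set summits, from 29.4% on chromosome 3 to 77.8% on chromosome 4, where SHD and AT4G03585 lie. On chromosome 2, where LHB1B1 lies, it was 55.4%. The 35S:HSFA1b list had lower values throughout, led by AT3G48550 (3.97), BRG1 (3.82), AT3G10040 (3.79) and AT5G37670 (3.48). ESM1, which modifies glucosinolate breakdown, had 3.43, AT3G12020 3.41, AT3G27250 3.36, the pseudogene AT3G27997 3.30, the ribosomal protein gene AT2G37190 3.27 and AT3G22550 3.27. Of these 35S:HSFA1b summits, 7 lay on chromosome 3. CNX1, AT1G20770, AT5G37670 and ESM1 were nonetheless nearest to a main-set summit of each construct, with the summits 2841, 115, 261 and 2265 bp apart.

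The chromosomes were not covered alike by 35S:HSFA1b. Its main-set peaks numbered 11.5, 6.50, 14.5, 2.48 and 17.7 per Mb on chromosomes 1 to 5, whereas those of NP:HSFA1b stayed between 8.57 and 11.1 per Mb. Deposited 35S:HSFA1b peaks covered 59.5%, 40.1% and 52.4% of chromosomes 1, 3 and 5 but 4.58% of chromosome 2 and 0.923% of chromosome 4. Their width followed the same split, with main-set medians of 5433, 2561 and 4857 bp on chromosomes 1, 3 and 5 and 675 and 460 bp on 2 and 4. The matched share of NP:HSFA1b peaks was highest on chromosome 3 (17.4%, 12.4 to 23.4%) and lowest on chromosome 4 (5.31%, 2.68 to 9.31%). The few 35S:HSFA1b peaks of chromosome 4 were matched most often, 11 of 46 (23.9%, 12.6 to 38.8%). On chromosome 4, 77.8% of NP:HSFA1b summits lay outside all deposited 35S:HSFA1b peaks, against 32.3% on chromosome 1 and 29.4% on chromosome 3. The part of this uneven coverage in the matched shares was not tested. Over chromosomes 2 and 4 alone, the matched share was 6.87% of NP:HSFA1b and 15.5% of 35S:HSFA1b peaks.

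**Figure D3:**
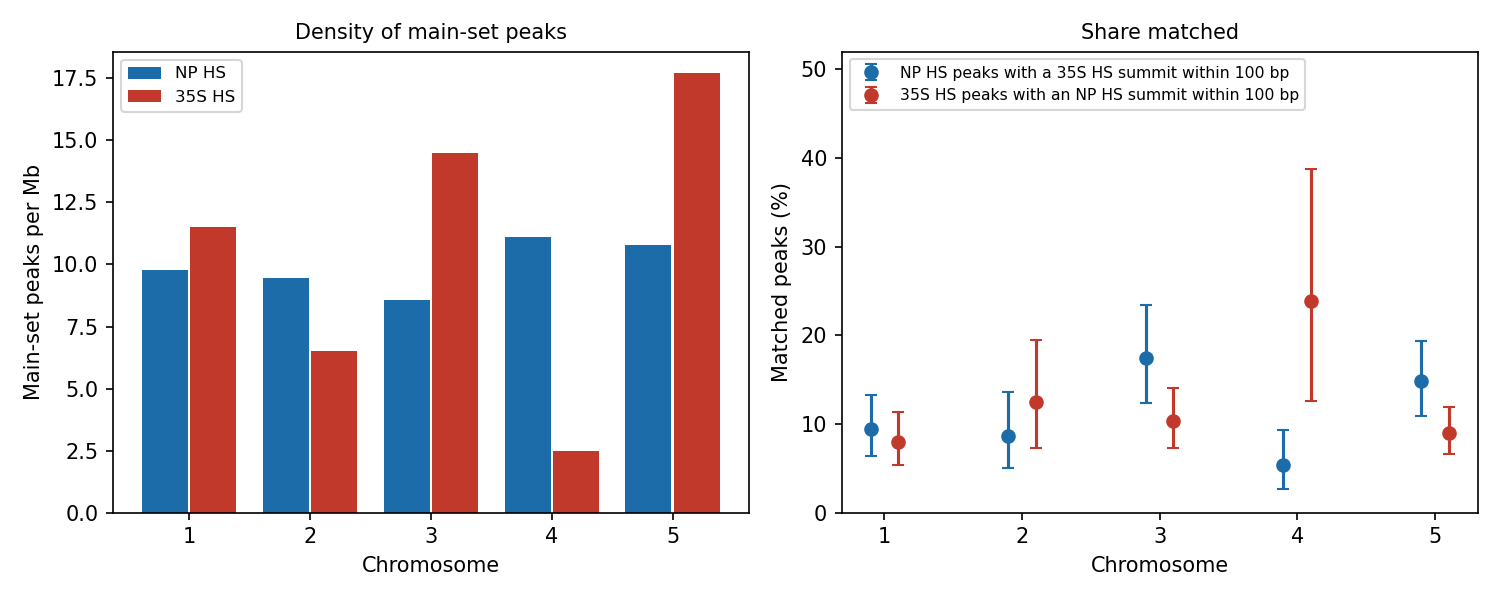
The left panel shows main-set peaks per Mb on chromosomes 1 to 5 for NP HS (blue) and 35S HS (red); the right panel shows the percent of each set matched within 100 bp, with 95% binomial intervals. NP HS density is even, from 8.57 to 11.1 per Mb, whereas 35S HS goes from 2.48 on chromosome 4 to 17.7 on chromosome 5.

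Matched summits lay nearer to gene starts. Within 250 bp of a TSS were 87 of the 133 matched NP:HSFA1b summits (65.4%, 56.7 to 73.4%), 46.5% of the unmatched NP:HSFA1b summits (43.4 to 49.5%) and 41.7% of the unmatched 35S:HSFA1b summits (38.9 to 44.5%). The matched share exceeded both others beyond the counting intervals. The median distance to the TSS was 130 bp at matched NP:HSFA1b summits, 310.5 bp at unmatched ones and 361 bp at unmatched 35S:HSFA1b summits. Upstream of the nearest gene lay 51.1% of matched NP:HSFA1b, 46.3% of unmatched NP:HSFA1b and 33.9% of unmatched 35S:HSFA1b summits. Inside it lay 43.6%, 46.4% and 58.1%. The share in coding exons was 12% (7.04 to 18.8%) at matched and 19.1% at unmatched NP:HSFA1b summits, and 27.7% (25.2 to 30.3%) at unmatched 35S:HSFA1b summits, so that summits seen with 35S:HSFA1b alone lay more often inside genes and in coding sequence. Peak width went with these values. Among unmatched 35S:HSFA1b peaks at most 1000 bp wide, 48.5% lay within 250 bp of a TSS and 17.5% in coding exons, close to the unmatched NP:HSFA1b values, while 54.8% (49 to 60.5%) lay inside the nearest gene.

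The HSE of 3 repeats set the unmatched 35S:HSFA1b summits apart. It lay within 50 bp of 10 of 133 matched NP:HSFA1b summits (7.52%, 3.66 to 13.4%), 51 of 1048 unmatched NP:HSFA1b summits (4.87%, 3.64 to 6.35%) and 4 of 1209 unmatched 35S:HSFA1b summits (0.331%, 0.0902 to 0.845%). The share over all 1014269 windows of the same length along the chromosome arms was 0.200%, and over 27443 windows at the TSS of protein-coding genes 0.164%. Both NP:HSFA1b groups were thus above the background of the genome, and the interval of the unmatched 35S:HSFA1b group included it. The 35S:HSFA1b summits of the matched pairs held it in 11 of 133 (8.27%, 4.2 to 14.3%). A single pair of repeats, GAA and TTC in either order with any 2 bases between them, is contained in every HSE of 3 repeats. It gave the same order: 24.8% and 20.6% at matched and unmatched NP:HSFA1b, 21.1% at matched 35S:HSFA1b and 6.70% (5.36 to 8.26%) at unmatched 35S:HSFA1b summits, with 7.80% over the genome. The difference between matched and unmatched NP:HSFA1b summits was within the counting intervals for both forms. Near a TSS, the HSE of 3 repeats was at 10 of 87 matched NP:HSFA1b summits (11.5%) and at 0 of 504 unmatched 35S:HSFA1b summits, which allows a share of up to 0.595%.

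Other motifs divided the lists differently. The G-box was above its genome share of 1.17% in all 4 groups, at 9.77% and 7.92% of matched and unmatched NP:HSFA1b, and 12% and 5.71% (4.47 to 7.17%) of matched and unmatched 35S:HSFA1b summits. It is frequent at promoters in general, with 3.63% of TSS windows. The GAGA repeat was at 9.10% (7.54 to 10.9%) of unmatched 35S:HSFA1b, 8.27% of matched 35S:HSFA1b, 6.77% (3.14 to 12.5%) of matched NP:HSFA1b and 2.77% (1.86 to 3.95%) of unmatched NP:HSFA1b summits, against 1.70% of the genome. Unmatched NP:HSFA1b summits were thus the group with the lowest share, its interval overlapped only that of matched NP:HSFA1b, and the intervals of the other groups overlapped each other. Among unmatched 35S:HSFA1b summits near a TSS it reached 13.7% (10.8 to 17.0%). The UPRE core was at 37 unmatched NP:HSFA1b summits (3.53%, 2.50 to 4.83%) and 7 unmatched 35S:HSFA1b summits (0.579%), the latter close to its genome share of 0.554%. Site II (TGGGCC), an element of promoters of growth-related genes, was at 12% of matched NP:HSFA1b and 5.25% of unmatched NP:HSFA1b summits, and 8.89% of TSS windows held it.

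**Figure D4:**
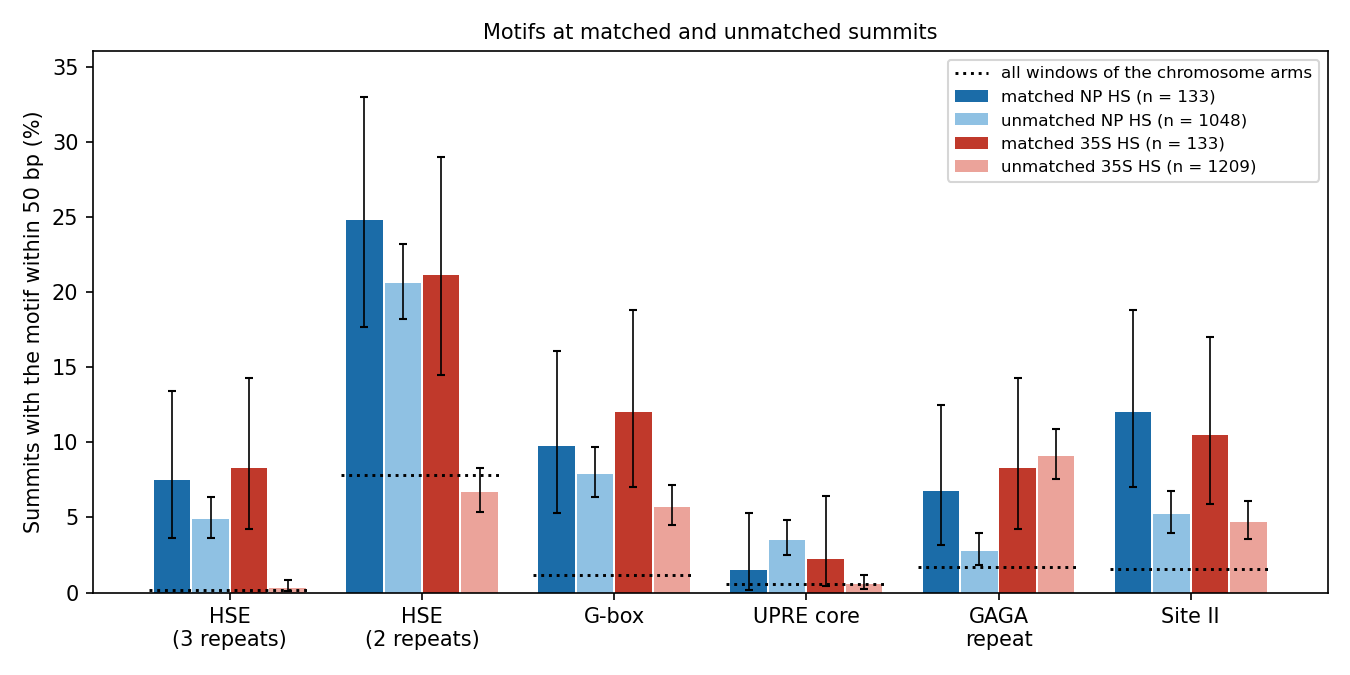
Bars give the percent of summits with each motif within 50 bp for matched and unmatched NP HS (dark and light blue) and matched and unmatched 35S HS peaks (dark and light red), with 95% binomial intervals; dotted lines give the share over all windows of the chromosome arms. The 3-repeat HSE is at 0.331% of unmatched 35S HS summits and 4.87% of unmatched NP HS summits, and the GAGA repeat at 9.10% and 2.77%, with 8.27% and 6.77% at the matched 35S HS and NP HS summits.

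Many of the matched summits also had a summit without heat in the 35S:HSFA1b plants. Of the 133 matched NP:HSFA1b HS summits, 92 (69.2%, 60.6 to 76.9%) had a deposited non-stress (NS) summit of 35S:HSFA1b within 100 bp and 43 (32.3%) one of NP:HSFA1b, while 33 (24.8%) had neither. Unmatched NP:HSFA1b HS summits had an NS summit of 35S:HSFA1b in 22.1% and of NP:HSFA1b in 23.5%. Unmatched 35S:HSFA1b HS summits had one of 35S:HSFA1b in 32.5% and of NP:HSFA1b in 25 of 1209 (2.07%, 1.34 to 3.04%). No FE limit was set on the NS lists and the shares were not adjusted for the sizes of these lists. The shares for the NS lists of the constructs are therefore not on one scale. Among the top 10 pairs, AT5G61970, ACT7, HSFA2, CPN20, WRKY22 and CESA1 had an NS summit of both constructs within 100 bp, Hop3, AT1G68300 and CYP78A7 of 35S:HSFA1b alone, and AT5G47420 of neither.

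Counted by genes, the overlap was larger than by summits. A summit counted for the gene whose TSS was nearest to it. Of 37899 annotated genes, 1097 were nearest to an NP:HSFA1b summit (2.89%), 1323 to a 35S:HSFA1b summit (3.49%) and 229 to both (0.604%). The shared genes were 20.9% of the NP:HSFA1b genes (18.5 to 23.4%) and 17.3% of the 35S:HSFA1b genes (15.3 to 19.5%). Of the 229, 131 had a matched summit and 98 had the summits of the constructs farther than 100 bp apart. The gene lists below are described against these shares of all genes, and against the share of genes whose TSS lay under a deposited peak, 1.45% for NP:HSFA1b and 38.6% for 35S:HSFA1b.

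Heat shock factor genes were at summits of both constructs, though mostly different members by the nearest-TSS rule. Of 21, 4 were nearest to an NP:HSFA1b summit, 3 to a 35S:HSFA1b summit and 1 to both. That 1 was HSFB2B, a repressor-type HSF, with FE 8.34 in NP:HSFA1b and 2.38 in 35S:HSFA1b and summits 52 bp apart. HSFA2, as described above, was at a matched summit but was assigned to FTSH4 in 35S:HSFA1b. With HSFB2B, 2 of the 4 NP:HSFA1b summits were thus matched. HSFA7A (5.45) and HSFA4A (5.30), activators of the stress response, were nearest to NP:HSFA1b summits alone. HSFB4 (2.71) and HSFB2A (2.18) were nearest to 35S:HSFA1b main-set summits alone, which lay 4916 bp upstream and 1164 bp inside of these genes. The study itself showed native-promoter HSFA1b at the HSFB2A promoter. The HSFA1b gene itself (AT5G16820, chr5:5530195-5532889) had 0 deposited NP:HSFA1b peaks and 3 deposited 35S:HSFA1b peaks within 1000 bp, with FE of 1.52 to 1.70, of which 0 were in the main set.

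Chaperone genes of the HSP90, HSP70, HSP100 and HSP60 families were among the most frequent NP:HSFA1b genes. NP:HSFA1b summits were nearest to 21 of 29 (72.4%), 35S:HSFA1b summits to 7 (24.1%), and all of these 7 were shared. All 7 were organellar. Those of the chloroplast were the HSP70 cpHSC70-2 (FE 9.37 in NP:HSFA1b and 2.31 in 35S:HSFA1b) and the chaperonin subunits CPN60A (4.98 and 2.22) and CPN60B2 (9.20 and 2.03). Those of mitochondria were the HSP70 mtHSC70-2 (8.32 and 2.63), the disaggregase CLPB4 (7.41 and 2.03) and the chaperonins HSP60 (5.82 and 2.92) and HSP60-3A (3.92 and 2.07). The summits were within 100 bp at 6 of the 7 and 365 bp apart at mtHSC70-2. Without peaks wider than 1000 bp the counts of the list were 19 and 3. With FE of at least 3 they were 21 and 0, and with no FE limit 21 and 16. The cytosolic members with the highest NP:HSFA1b values and no 35S:HSFA1b main-set summit were HSP70-4 (10.2) and HSP70-5 (8.96).

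Small heat shock proteins, which hold unfolding proteins until they can be refolded, were nearly all at NP:HSFA1b summits. NP:HSFA1b summits were nearest to 15 of 16 of their genes (93.8%) and 35S:HSFA1b summits to 3 (18.8%). Without peaks wider than 1000 bp the counts were 11 and 0, and with no FE limit 15 and 10. All 15 NP:HSFA1b summits lay within 250 bp of the TSS, 7 held a pair of GAA and TTC repeats within 50 bp, 0 held the HSE of 3 repeats and 0 had a matched 35S:HSFA1b summit. Over all NP:HSFA1b main-set summits these shares were 48.6%, 21.1%, 5.17% and 11.3%. The 3 shared genes were HSP17.6II (FE 7.42 and 3.06, summits 799 bp apart), HSP15.7 (4.58 and 3.48, 261 bp) and the chloroplast protein HSP21 (4.14 and 2.21, 851 bp). The highest NP:HSFA1b values without a 35S:HSFA1b main-set summit were at AT1G54050 (15.7) and HSP17.6B (AT2G29500, 12.9). Yet deposited 35S:HSFA1b peaks of any FE covered the TSS of 14 of the 16 genes. On chromosomes 2 and 4, where such peaks covered 6.62% of all gene starts, they covered 3 of 5.

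The covering 35S:HSFA1b peaks at these genes had a high pileup and a high local background. The summit of the covering peak lay within 1000 bp of the TSS for 11 of the 14. All 11 had a pileup, the number of fragments over the summit as scaled by the caller, of 104 to 198 (median 133), which is above the 94.5 of the weakest main-set peak. FE was nevertheless at least 2 at 3 of them. At 9 of the 11 the background that the caller drew from the 35S_control_HS libraries exceeded the genome-wide level of 46.5, by up to 3.57 times. Counted per peak, it did so at 3.84% of all deposited 35S:HSFA1b peaks. Counted per gene with a covered TSS, it did so at 11 of 14 genes of this list and 8 of 11 light-harvesting genes. For tRNA, long non-coding RNA and ribosomal protein genes it was 94 of 340, 192 of 1323 and 14 of 133. HSP17.4 had a pileup of 198 over a background of 166 (FE 1.19), HSP17.6B 133 over 106 (FE 1.25) and HSP17.6A (AT5G12030) 167 over 141 (FE 1.19). Among the larger chaperones, HSP90.1 had 238 over 178 (FE 1.34) and HSP70-5 273 over 205 (FE 1.33), at summits 1287 and 1046 bp from the TSS. In NP:HSFA1b the FE at the same genes was 8.26, 12.9, 9.76, 7.30 and 8.96. The NP:HSFA1b background also exceeded its own genome-wide level at 48.4% of all deposited NP:HSFA1b peaks. It did so at 9 of the 15 main-set peaks at small heat shock protein genes and at 21 of 27 at the larger chaperone genes. When 35S:HSFA1b peaks were instead chosen by a pileup of at least 94.5, an alternative added after the values were seen, their summits were nearest to 9 of the 16 small heat shock protein genes in place of 3 and to 11 of the 29 larger chaperone genes in place of 7, while the genes assigned over the whole genome went from 1323 to 1467. The source of the fragments in the control libraries at these genes was not tested.

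The shared co-chaperone genes had matched summits. NP:HSFA1b summits were nearest to 9 of 17 and 35S:HSFA1b summits to 4, all of them shared: Hop2 (FE 10.7 and 2.50) and Hop3 (13.7 and 2.01), which link HSP70 to HSP90, the NudC-type chaperone BOB1 (11.3 and 2.48) and the DnaJ protein J3 (6.54 and 2.09). Summits were 33 bp apart at Hop2, 23 bp at Hop3 and 37 bp at J3. BOB1 had a matched 35S:HSFA1b summit of FE 2.33 at its TSS and a stronger one 2326 bp inside the gene. BAG6 (8.87) and the FKBP-type ROF2 (6.99) led those with an NP:HSFA1b summit alone.

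ER chaperones and folding enzymes were mainly at NP:HSFA1b summits. NP:HSFA1b summits were nearest to 15 of 22 (68.2%) and a 35S:HSFA1b summit to 1 (4.55%), a share near that of all genes. The 1 was CNX1 (22.7 and 2.15), where the 35S:HSFA1b summit lay 2841 bp away, downstream of the gene. Of the 17 NP:HSFA1b summits at these genes, 15 were within 250 bp of the TSS, 6 held the UPRE core, 4 the G-box and 0 an HSE of 3 repeats, and 11 lay outside every deposited 35S:HSFA1b peak. Over all NP:HSFA1b main-set summits these shares were 48.6%, 3.30%, 8.13%, 5.17% and 44.6%. With 17 summits, a count of 0 for the HSE does not set these genes apart. Deposited 35S:HSFA1b peaks of any FE covered the TSS of 7 of the 22 genes (31.8%, against 38.6% of all genes), and with no FE limit 35S:HSFA1b summits were nearest to 5 of them, all shared. SHD (28.6) and ERDJ3B (16.2) had the highest FE among the genes with an NP:HSFA1b summit alone. Of 5 regulators of the unfolded protein response, BZIP28, the ER-membrane bZIP factor, was nearest to an NP:HSFA1b summit (5.23) and 0 to a 35S:HSFA1b main-set summit. A weaker deposited 35S:HSFA1b summit lay within 100 bp of the BZIP28 summit. With no FE limit the counts of this list were 1 and 4, with 1 shared (1102 and 8701 of all genes).

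The light-harvesting list had more genes at 35S:HSFA1b than at NP:HSFA1b main-set summits, an order that turned under some limits on peaks and held under others. Of 18 genes for light-harvesting complex proteins, 2 were nearest to an NP:HSFA1b summit and 7 to a 35S:HSFA1b summit (38.9%). LHCB4.2 was the shared gene (3.46 and 2.23, summits 1925 bp apart). LHB1B1 (15.3) had an NP:HSFA1b summit alone, and CAB1 (2.90) and LHCA4 (2.85) had the highest values among those with a 35S:HSFA1b summit alone. Without peaks wider than 1000 bp the counts were 2 and 1, and with FE of at least 3 they were 2 and 0. Over all genes these limits left 1066 and 354, and 1035 and 39, so they removed most 35S:HSFA1b genes. With no FE limit the counts were 2 and 11 (1102 and 8701 of all genes). At q of at most 1e-05 they were 1 and 7 (780 and 1323 of all genes). All 7 of the 35S:HSFA1b summits of the main set were more than 250 bp from the TSS, 485 to 2046 bp from it, inside or downstream of the gene. Of 5 genes for Rubisco small subunits and activase, RBCS1B alone had a 35S:HSFA1b summit (2.41), in a peak 10574 bp wide, and 0 had an NP:HSFA1b summit. Deposited 35S:HSFA1b peaks covered the TSS of 11 of the 18 light-harvesting genes, and at 8 of these peaks the background exceeded the genome-wide level, by up to 1.55 times. Its part in these values was not tested.

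**Figure D5:**
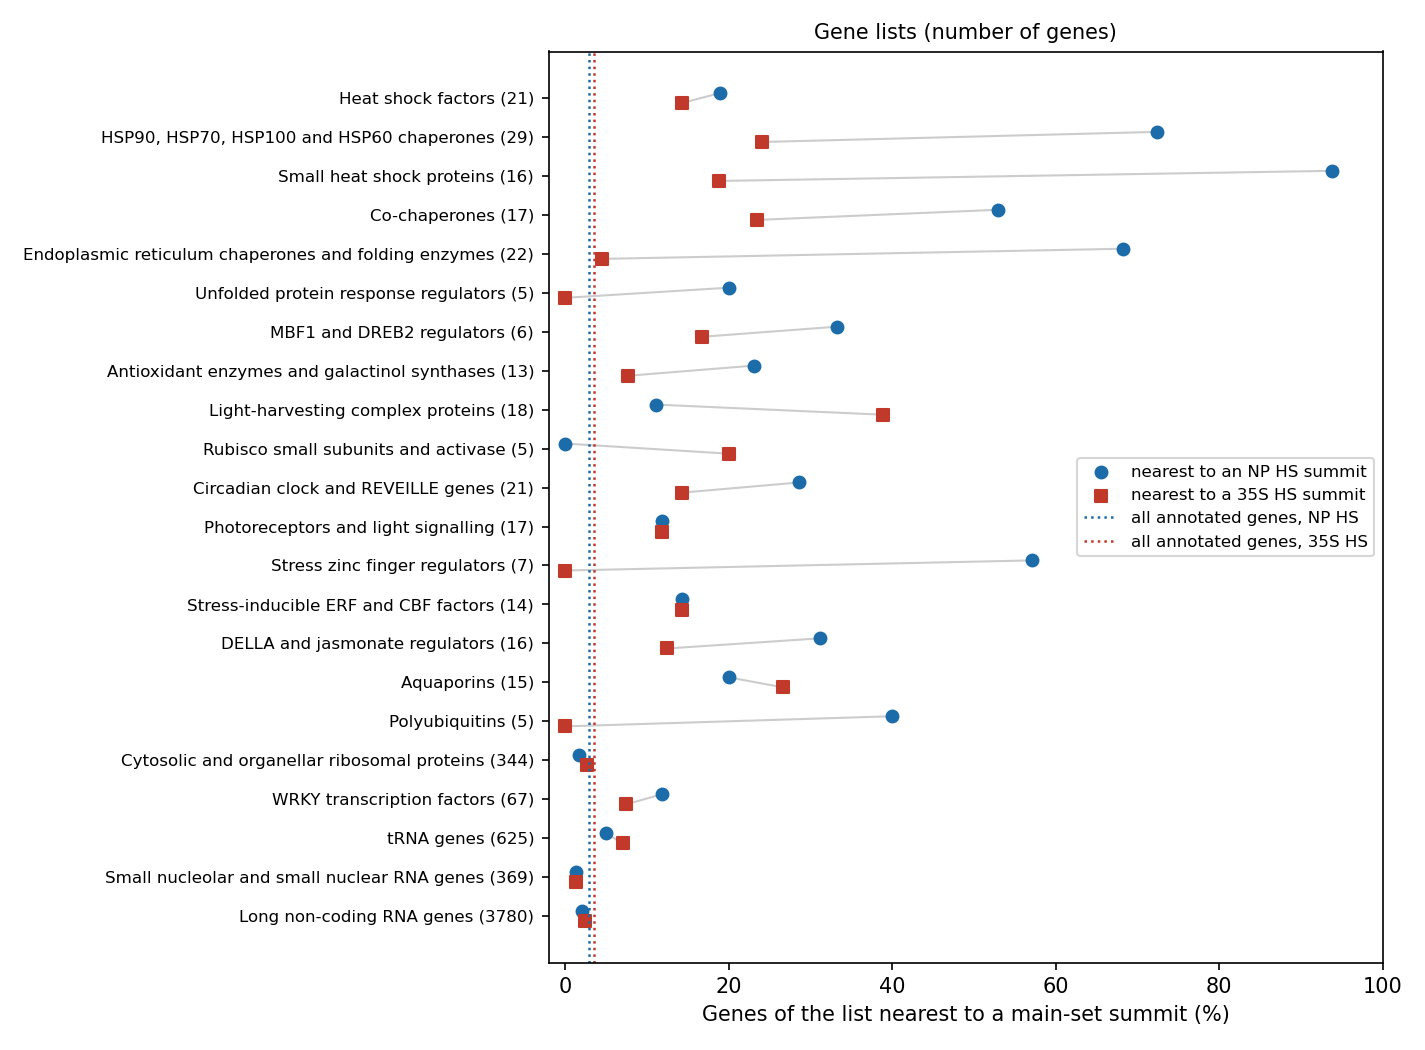
For each of 22 gene lists (number of genes in parentheses), the x axis gives the percent of its genes nearest to an NP HS (blue circles) or a 35S HS (red squares) main-set summit; dotted lines give the shares of all annotated genes, 2.89% and 3.49%. Small heat shock proteins (93.8% against 18.8%) and ER chaperones (68.2% against 4.55%) lie far to the right in NP HS. Light-harvesting proteins (11.1% against 38.9%) lie in the reverse order. Their counts turn to 2 against 1 genes without peaks wider than 1000 bp and 2 against 0 with FE of at least 3. These limits leave 1066 against 354 and 1035 against 39 of all genes. With no FE limit the counts are 2 against 11.

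Among WRKY factors, which regulate defence and stress genes, 8 of 67 were nearest to an NP:HSFA1b summit and 5 to a 35S:HSFA1b summit, and 4 of these were shared at matched summits. These were WRKY22 (12.6 and 3.84, summits 1 bp apart), WRKY47 (4.14 and 2.78, 31 bp), WRKY7 (5.45 and 2.18, 17 bp) and WRKY6 (4.09 and 2.12, 35 bp). These 4 NP:HSFA1b summits were 609 to 2014 bp from the TSS. WRKY23 (8.83) and WRKY48 (5.96) had an NP:HSFA1b summit alone, and WRKY27 (2.12) a 35S:HSFA1b summit alone. Of 14 genes for ERF and CBF factors, ERF4 was shared (2.96 and 2.02, 93 bp), ERF13 (3.92) was at an NP:HSFA1b and ERF5 (2.53) at a 35S:HSFA1b summit. With no FE limit the counts of these factors were 2 and 9, with 2 shared. The zinc finger regulators had 4 of 7 at NP:HSFA1b summits, led by ZAT12 (7.41) and ZAT6 (4.80), and 0 at 35S:HSFA1b main-set summits. With no FE limit the counts were 4 and 5, with 4 shared (1102 and 8701 of all genes). Of the 4 NP:HSFA1b summits, 1 had a weaker deposited 35S:HSFA1b summit within 100 bp and 3 lay outside every deposited 35S:HSFA1b peak. Of the drought and heat regulators of the MBF1 and DREB2 families, DREB2A (6.81) and DREB2C (3.92) were at NP:HSFA1b and DREB2B (2.48) at 35S:HSFA1b summits.

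Hormone, clock and water-channel genes were shared in small numbers. Of 16 DELLA and jasmonate regulators, 5 were nearest to an NP:HSFA1b and 2 to a 35S:HSFA1b summit. Both of these were shared: RGL3, a DELLA repressor (8.07 and 2.04, 1018 bp apart), and JAZ3, a jasmonate repressor (3.61 and 2.36, 27 bp). MYC2 (7.08), the main jasmonate activator, and JAZ1 (4.80) had an NP:HSFA1b summit alone. Of 21 clock and REVEILLE genes, 6 and 3 were nearest to summits of the constructs in the same order, with RVE1 (3.92 and 2.36, 233 bp) and RVE7 (4.88 and 2.62, 143 bp) shared, GI (7.19) and PRR7 (5.89) at NP:HSFA1b and PRR5 (2.01) at 35S:HSFA1b summits. Of 15 aquaporins, 3 and 4 were so placed, with TIP1;1 (7.01 and 2.53, 487 bp) and PIP1B (3.92 and 2.62, 1627 bp) shared, PIP1;4 (3.71) at an NP:HSFA1b summit, and TIP1;2 (2.91) and PIP2B (2.1) at 35S:HSFA1b summits.

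Of the remaining large lists, the tRNA genes were above the share of all genes in both constructs. Ribosomal protein, small nucleolar and small nuclear RNA and long non-coding RNA genes were below it. Among the small lists, each with few genes at summits, the antioxidant list had 23.1% at NP:HSFA1b and 7.69% at 35S:HSFA1b summits. The photoreceptor list had 11.8% and 11.8%, and the polyubiquitin list 40% and 0%. Of 13 genes for antioxidant enzymes and galactinol synthases, which make heat-protective sugars, 3 were at NP:HSFA1b summits, with GolS1 (7.52) and APX1 (5.66) highest, and 1 at a 35S:HSFA1b summit, CAT3 (2.31). Of 17 photoreceptor and light signalling genes, GBF3 (4.36) and PIF5 (3.71) were at NP:HSFA1b and PHYB (2.39) and PIF3 (2.19) at 35S:HSFA1b main-set summits. Both of these NP:HSFA1b summits had a weaker deposited 35S:HSFA1b summit within 100 bp. With no FE limit the counts of the list were 2 and 9, with 2 shared (1102 and 8701 of all genes). Of 5 polyubiquitin genes, UBQ11 (3.99) and UBQ10 (3.44) were at NP:HSFA1b main-set summits alone. With no FE limit the counts were 2 and 2 for this list and 3 and 4 for the antioxidant list, with 1 shared in each. Ribosomal protein genes, 344 in all, had 1.74% at NP:HSFA1b and 2.62% at 35S:HSFA1b summits, and AT1G33120 (4.25 and 3.12, 7 bp) and AT5G16200 (3.05 and 2.04, 155 bp) were shared. AT5G15220 (6.32) and PGY2 (6.30) led those at NP:HSFA1b summits alone, and AT2G37190 (3.27) and AT5G15260 (2.50) those at 35S:HSFA1b summits alone. Of 625 tRNA genes, 4.96% and 7.04% were nearest to summits of NP:HSFA1b and 35S:HSFA1b. Both constructs had a summit at 8 of them, with the NP:HSFA1b and then the 35S:HSFA1b FE being 6.32 and 2.36 at AT3G48515, 5.67 and 3.26 at AT1G69000, 4.73 and 2.04 at AT5G46325, 4.58 and 2.51 at AT1G20820, 4.36 and 2.25 at AT5G39895, 4.14 and 2.15 at AT5G14035, 3.92 and 2.88 at AT3G27825, and 3.41 and 2.36 at AT2G15950. AT1G55625 (5.30), AT1G06610 and AT2G36520 (5.23 each) led the tRNA genes at NP:HSFA1b summits alone, and AT5G25625 (2.95) and AT1G69130 (2.76) those at 35S:HSFA1b summits alone. Of 369 small nucleolar and small nuclear RNA genes, 1.36% were at summits in each construct. U6.29 (6.33 and 2.22) was shared, AT4G39361 (6.54) and U6.6 (4.36) were at NP:HSFA1b summits alone, and AT5G06055 (2.27) and U1.6 (2.18) at 35S:HSFA1b summits alone.

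Of 3780 long non-coding RNA genes, 2.06% were nearest to NP:HSFA1b and 2.43% to 35S:HSFA1b summits, and 13 to both. AT5G06535 had the highest NP:HSFA1b value of the shared ones (8.07 and 2.51, summits 3 bp apart), followed by AT3G03165 (6.54 and 2.22, 35 bp), and both had an HSE of 3 repeats within 50 bp of the summits of both constructs. The others were AT3G01675 (5.89 and 2.03), AT5G02015 (5.45 and 2.06), AT3G07395 (5.23 and 2.13), AT1G08497 (4.80 and 2.13), AT1G05473 (4.58 and 2.28), AT3G03535 (4.36 and 2.29), AT3G24518 (4.14 and 2.07), AT2G08440 (3.74 and 2.59), AT5G08135 (3.63 and 2.26), AT5G07805 (3.49 and 2.13) and AT2G09320 (3.45 and 2.35). AT1G07833 (19.2) and AT4G03585 (13.4) led those at NP:HSFA1b summits alone, and AT3G08085 (3.07) and AT4G09445 (2.82) those at 35S:HSFA1b summits alone.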

How the data were processed

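The authors aligned paired-end reads to TAIR10 with GSNAP, allowing 1 mismatch, removed duplicates with SAMtools and, per the file headers, called peaks with MACS2 2.0.10.20131028 (q at most 0.05, effective genome size 134634692 bp). The submitters' processing notes name CASAVA 1.8.2. Each deposited list came from 2 pooled treatment libraries against 2 pooled control libraries. Per the file headers, each peak carries the pileup signal (fragment coverage) at its summit, its fold enrichment (a ratio to local background) and −log10 values for its p and q (q-value used here). The authors' 35S HS pileups were scaled down (multiples of 0.721 at all 13262 peaks), and the NP HS control was scaled up. All 4 lists were read, the NS lists only for the presence of summits, and a second deposited format of the same peaks was not needed.

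The main sets follow the study's limits (q 0.05, FE 2, no pericentromere) with 1 exception: the study also discarded broad peaks over highly transcribed genes, and these were kept here, with peaks wider than 1000 bp left out as an alternative. The pericentromere was taken as 500 kb windows, in 100 kb steps, holding under 50% of the median of 130 protein-coding genes, 16.7 Mb in all. Background pileup was recovered from pileup and FE with a pseudocount of 1. Genes came from a RefSeq annotation of the assembly (37899 genes, 27444 protein-coding), whose chromosome lengths match TAIR10. Motifs were searched on both strands in windows of 101 bp; a UPRE core cannot overlap a G-box in the same letters, and each HSE of 3 repeats also counts as one of 2. Zero counts were given a limit of 3 counts. Scripts were tested on simulated data. Python 3.11.15, pandas 2.3.3, numpy 2.4.6, scipy 1.17.1 and matplotlib 3.10.9 were used.

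The comparison, the 22 gene lists (247 genes in the 17 smallest) and the motifs were chosen with earlier results of these data known. Genes were named by a rule: the 10 matched pairs with the highest NP HS FE, the 10 strongest peaks of each list without a deposited counterpart within 100 bp, every list gene nearest to summits of both, HSFA1b, and for each list the 2 strongest members nearest to 1 construct alone. HSP17.4, HSP17.6A and HSP90.1, BOB1's second summit and 1 alternative were added after the values were seen. No test across samples was possible with pooled lists. Alternatives varied the FE limit, match distance, overlap, width, q, gene set, motif window and chromosomes.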

Additional observations from a re-analysis of the deposited data

How the results depend on the processing

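Of 199 values recomputed for 15 results, 133 moved by less than their counting interval and 66 moved by more. The shares of shared genes do not use the match distance, so they could not move when it was changed. No paired analysis was possible because the authors pooled the replicates before calling peaks, and for the same reason no replicate could be left out. The choices of chromosomes 2 and 4, of chromosomes 1, 3 and 5, and of 35S HS peaks by pileup were made after seeing the data.

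The matched shares depended on the FE limit. With FE of at least 3 in both lists they were 1.37% of NP HS and 38.5% of 35S HS peaks (genes 2.03% and 53.8%), the median FE of matched NP HS peaks was 8.78, 50% and 33.3% of unmatched NP HS and 35S HS peaks were near a TSS, the HSE was at 0% of matched NP HS and 0% of unmatched 35S HS summits, and the G-box at 0% and 8.33%. The 15 pairs left had r 0.025, and the excess of both motifs at matched over unmatched NP HS summits turned into a deficit (-5.37 and -8.70 points). With no FE limit the shares were 23.1% and 2.23% (genes 48.8% and 6.18%), with 29.3% of unmatched 35S HS peaks near a TSS and the G-box at 3.01%. At q of at most 1e-05 they were 13.5% and 8.12% (35S HS genes 13.1%), with 54.4% of unmatched NP HS peaks near a TSS, median FE 5.23 and the HSE at 6.42%.

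Matching summits within 50 bp gave 7.96% and 7%, within 250 bp 14.2% and 12.5%, and by overlap 29.1% and 20.9%. Without peaks wider than 1000 bp the shares were 5.07% and 16.1% (genes 7.60% and 22.9%), and 48.5% of unmatched 35S HS peaks were near a TSS (unmatched NP HS minus unmatched 35S HS -0.541 points), with the G-box at 7.59%. Over chromosomes 2 and 4 they were 6.87% and 15.5% (genes 12.4% and 26.5%), with 35.4% of unmatched 35S HS peaks near a TSS, the HSE at 14.8% of matched NP HS and 0% of unmatched 35S HS summits, and the G-box at 8.84% of the latter; the G-box share of matched minus unmatched NP HS summits was -1.88 points. Over chromosomes 1, 3 and 5, 13.5% of NP HS peaks and 25.1% of NP HS genes were matched or shared.

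By 35S HS pileup, 24.1% of NP HS genes were shared and 38.7% of unmatched 35S HS peaks were near a TSS. With protein-coding genes alone, 41.2% of unmatched NP HS and 36.2% of unmatched 35S HS peaks were near a TSS, and with genes assigned within 1000 bp 18.4% of NP HS genes were shared. Within 100 bp of the summit the HSE was at 7.54% of unmatched NP HS and 0.993% of unmatched 35S HS summits and the G-box at 16.5%, 14.4% and 9.51% of matched NP HS, unmatched NP HS and unmatched 35S HS summits. The HSE of 2 repeats was at 24.8%, 20.6% and 6.70% of the same groups. Of the 247 list genes, 41 were nearest to a 35S HS summit and 24 to summits of both; these became 2 and 2 with FE of at least 3, 114 and 57 with no FE limit, and 9 and 6 without wide peaks, and 37 were nearest to both by pileup. In no setting did the HSE share of unmatched 35S HS summits reach that of unmatched NP HS summits. Over the genome-wide background, FE 2 stood for a pileup of 94 in 35S HS and 8.17 in NP HS.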
